A study of Mus musculus with 18 samples.

Results

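The CD300 and PILR paired receptors are 8 of the 21200 named genes on the array, covered by 12 of its 41174 probes: Cd300e, Pilrb1, Pilra, Cd300a, Cd300lf, Cd300lb, Cd300ld and Cd300lg. They were taken by gene symbol, and the family was chosen by the levels of Cd300e and Pilrb1 in these samples, so the values of both genes are given as a description without a test, and only the other 6 were tested. Several probes carry old names. By transcript accession, the array's 4732429D16Rik is Cd300ld, its Pilrb is Pilrb1, and both probes it calls Cd300d belong to the gene now named Cd300c2, which is treated here as a neighbour and not as a member. The Pilrb1 probe also lists a transcript of Pilrb2, so the products of these genes cannot be told apart there. All 8 members passed the filter on dim probes.

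RNA came from cultured bone marrow-derived macrophages of Irf4-/- and Irf4+/- C57BL6/J littermates aged 8 to 12 weeks. Irf4 encodes a transcription factor that IL-4 induces in macrophages, and the control animals are heterozygous, so no group carries the intact gene on both alleles. Marrow of several animals was pooled and grown with human rCSF1 at 200 ng/ml, cells were harvested on day 6, and on day 7 they were left for 18 h without IL-4 (mock) or kept with 10 ng/ml of it for 4 h or 18 h. The groups are Irf4-/- mock, Irf4-/- with IL-4 for 4 h, Irf4-/- with IL-4 for 18 h, and the same 3 conditions of Irf4+/- cells, each with 3 samples from independent experiments A, B and C. The mock cultures have no 4 h time point, so a 4 h difference also compares culture times.

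Paired receptors are families of related surface proteins in which some members inhibit and others activate the cell. Inhibitory members such as PILRα, CD300a and CD300f carry tyrosine motifs in the cytoplasmic tail that recruit the phosphatase SHP-1. Activating members such as PILRβ and CD300e have short tails and signal through adaptors with activating motifs, among them DAP12 (Tyrobp), which recruit the kinase SYK. The genes lie in clusters: RefSeq lists Cd300a, Cd300lb, Cd300c, Cd300ld, Cd300c2, Cd300ld4, Cd300ld2, Cd300ld5, Cd300ld3 and Cd300e next to each other on mouse chromosome 11, with Cd300lf beyond Rab37. Cd300lg lies elsewhere on chromosome 11 between Mpp3 and Mpp2. Pilra, Pilrb1 and Pilrb2 are adjacent on chromosome 5.

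Levels are the log2 of the scanner's processed signal minus the array's 75th percentile, so 0 is the intensity of that percentile, and differences are log2 differences between group means with the standard error (SE) of a limma fit over all 18 arrays. That fit has no term for the experiment. Each SE therefore includes variation between experiments, also where it cancels in differences taken within an experiment. A level cannot be compared between probes. On the 18 one-colour arrays, 63.4% to 74.4% of 43379 spots were well above background. In bulk RNA, fewer cells of a type and less RNA per cell cannot be told apart. All 8 macrophage markers, among them Csf1r, Adgre1 and Mertk, were well above background on every array. So were 5 of 7 neutrophil, 5 of 7 endothelial, 4 of 5 fibroblast, 3 of 5 B cell and 1 of 6 T and NK cell markers, so this flag does not separate cell types. In units of the 75th percentile, neutrophil markers summed to 16.3 to 53.6 in Irf4-/- mock and 17.9 to 20.9 in Irf4+/- mock. At 18 h they summed to 14.6 to 51.5 and 13.1 to 25.1. B cell sums did not overlap in mock (1.31 to 1.83 in Irf4-/- and 1.99 to 2.81 in Irf4+/- cells) or at 4 h (1.67 to 1.98 and 2.11 to 3.59). They overlapped at 18 h. Eosinophil sums did not overlap at 18 h (0.275 to 0.503 and 0.170 to 0.262) and overlapped in mock and at 4 h. The part of such cells in the results was not tested. The Irf4 probe was not lower in the samples labelled Irf4-/- than in those labelled Irf4+/-: its mean level was -0.77 and -1.11 in mock, 1.72 and 1.67 after 4 h of IL-4, and 1.52 and 1.27 after 18 h. The sources used here do not place this probe relative to the deletion, so it does not check the labels. No slide held both genotypes in the same condition. In experiment A the genotypes were also scanned on different days, whereas in B and C they shared a scan day.

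The promoters of Cd300e and the PILR genes, which were lower with IL-4, and of Cd300ld, which was higher, are shown first, since those of the PILR genes are near copies of each other while those of Cd300e and Cd300ld are not. RefSeq promoters (GRCm38.p6, 250 bases before to 50 after the gene start, read 5′ to 3′ on the gene's strand) were at hand for 7 of the 8 members, all except Cd300lg. Capitals mark matches to the motifs searched: TTC and GAA separated by 4 bases (the spacing STAT6 prefers) or by 3 (TTCNNNGAA, the spacing of other STAT sites), GAAA and GAAA separated by 2 bases (core of the interferon-stimulated response element), GGAA and GAAA separated by 2 bases (an ETS-IRF composite) and GAGGAAGT (PU.1). Both strands were searched.
Cd300e at chr11:115061990-115062289, minus strand: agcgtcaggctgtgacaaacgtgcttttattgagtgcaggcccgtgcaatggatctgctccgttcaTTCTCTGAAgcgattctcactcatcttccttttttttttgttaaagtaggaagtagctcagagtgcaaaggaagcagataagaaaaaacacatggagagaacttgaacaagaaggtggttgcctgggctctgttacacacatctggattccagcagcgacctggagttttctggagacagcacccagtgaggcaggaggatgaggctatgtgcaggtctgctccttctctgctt
Pilrb1 at chr5:137858000-137858299, minus strand: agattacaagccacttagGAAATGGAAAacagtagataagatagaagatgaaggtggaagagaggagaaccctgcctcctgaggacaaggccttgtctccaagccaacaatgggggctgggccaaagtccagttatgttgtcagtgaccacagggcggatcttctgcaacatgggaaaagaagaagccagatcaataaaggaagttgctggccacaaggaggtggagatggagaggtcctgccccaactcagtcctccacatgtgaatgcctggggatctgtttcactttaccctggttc
Pilrb2 at chr5:137871709-137872008, minus strand: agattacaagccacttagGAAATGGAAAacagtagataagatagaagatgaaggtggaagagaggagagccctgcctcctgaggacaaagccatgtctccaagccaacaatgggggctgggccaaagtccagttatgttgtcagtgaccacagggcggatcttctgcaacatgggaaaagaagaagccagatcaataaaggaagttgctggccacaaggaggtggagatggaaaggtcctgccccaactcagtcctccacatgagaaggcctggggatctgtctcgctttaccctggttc
Pilra at chr5:137836229-137836528, minus strand: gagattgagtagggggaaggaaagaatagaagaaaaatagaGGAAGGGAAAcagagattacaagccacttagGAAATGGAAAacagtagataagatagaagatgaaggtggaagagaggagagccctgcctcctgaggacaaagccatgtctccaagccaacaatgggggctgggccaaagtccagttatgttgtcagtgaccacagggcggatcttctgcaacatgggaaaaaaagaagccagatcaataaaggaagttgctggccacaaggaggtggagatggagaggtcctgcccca
Cd300ld at chr11:114989837-114990136, minus strand: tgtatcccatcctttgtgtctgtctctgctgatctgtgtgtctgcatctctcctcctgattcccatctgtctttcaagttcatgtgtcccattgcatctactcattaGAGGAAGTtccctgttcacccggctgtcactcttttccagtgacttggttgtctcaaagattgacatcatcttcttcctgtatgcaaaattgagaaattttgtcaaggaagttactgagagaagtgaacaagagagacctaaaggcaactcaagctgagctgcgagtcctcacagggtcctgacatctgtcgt

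The PILR promoters are near copies. Aligned without gaps, Pilrb1 and Pilrb2 were identical at 292 of 300 bases (97.3%), Pilra and Pilrb1 at 242 of 246 overlapping bases (98.4%), and Pilra and Pilrb2 at 244 of 246 (99.2%). Cd300e and Pilrb1 matched at 31.4% of the overlapping bases under their best shift, and Cd300e and Cd300ld at 32.5%. GAAATGGAAA, a match to the response element core, starts 232 bases before the gene start of Pilrb1 and Pilrb2 and 178 bases before that of Pilra; 3.443% of 32851 RefSeq promoters of this length hold this motif. Pilra also holds GGAAGGGAAA 209 bases before its start (motif in 2.715% of promoters). The single match of Cd300e is TTCTCTGAA, 184 bases before the start (motif in 8.298%), and that of Cd300ld is GAGGAAGT, 143 bases before it (motif in 3.202%). The 4-base STAT spacing, held by 6.953% of promoters, has no match in these 5 windows. These matches describe letters and show no binding.

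Cd300e, an activating receptor of monocytes known from human cells to signal through DAP12, was lower after 4 h of IL-4 and lower again after 18 h in both genotypes, and at 18 h it stood higher in Irf4-/- cells. Its level in Irf4-/- cells of experiments A, B and C was 2.25, 2.30 and 1.89 in mock, 1.15, 0.79 and 0.85 after 4 h, and 0.12, -0.55 and -1.06 after 18 h. In Irf4+/- cells it was 2.27, 1.08 and 1.57 in mock, 0.75, -0.39 and 0.26 after 4 h, and -2.60, -2.94 and -2.79 after 18 h. Within each genotype the conditions did not overlap. Relative to mock, the 18 h difference was -2.65 ± 0.34 in Irf4-/- cells, a 6.26-fold lower signal, and -4.41 ± 0.34 in Irf4+/- cells, a 21.3-fold lower signal. Over all processing alternatives these differences ranged from -2.95 to -2.37 and from -4.69 to -3.01. At 4 h the differences were -1.22 ± 0.34 and -1.43 ± 0.34, so the genotypes stood closer at 4 h than at 18 h.

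At 18 h the Irf4-/- level of Cd300e exceeded the Irf4+/- level by 2.28 ± 0.34 (4.85-fold), with differences of 2.72, 2.38 and 1.73 in experiments A, B and C. The groups did not overlap. In mock the difference was 0.51 ± 0.34, made up of -0.01, 1.22 and 0.32, and the groups overlapped; at 4 h it was 0.72 ± 0.34. The 18 h response was smaller by 1.77 ± 0.48 in Irf4-/- cells, with 2.73, 1.17 and 1.41 by experiment. Over all processing alternatives this response difference ranged from 0.61 to 2.05. The size of the 18 h gap depends on the background correction: with normexp on the raw spot and local background signals it was 0.90, and 1.81 when spots far dimmer than their background were left out of that correction. It was 2.16 with scan day as a block and 2.15 with slide as a random block.

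Ordered by mean, Cd300e was highest in Irf4-/- mock (2.15 ± 0.22, SD, n = 3), then in Irf4+/- mock (1.64 ± 0.60), Irf4-/- at 4 h (0.93 ± 0.19), Irf4+/- at 4 h (0.21 ± 0.57), Irf4-/- at 18 h (-0.50 ± 0.59) and Irf4+/- at 18 h (-2.78 ± 0.17). The values of neighbouring groups overlapped at 3 of the 5 steps, all but that between the genotypes at 4 h and that between the genotypes at 18 h. Cd300e is also used as a marker of non-classical monocytes. All 5 listed markers of these cells (Nr4a1, Treml4, Ace, Spn and Cx3cr1) were well above background on all 18 arrays. Nr4a1 and Cx3cr1 fell at 4 h in both genotypes. At 18 h Cx3cr1 fell in Irf4-/- cells and Cx3cr1 and Spn in Irf4+/- cells. So 2 and 2 of the 5 passed at 4 h (against 3.93% and 4.27% of all genes) and 1 and 2 at 18 h (3.57% and 4.16%). With the block 3, 4, 3 and 4 passed in the same order (18.2%, 18.3%, 18.4% and 15.5% of all genes). None rose relative to mock in either fit. Treml4 stood at -2.91 ± 0.86 in Irf4-/- and -3.11 ± 0.86 in Irf4+/- cells at 18 h (limma adjusted p = 0.0890 and 0.0594, with the block 2.30e-05 and 1.11e-05). Between 4 h and 18 h Nr4a1 differed by 1.176 in Irf4-/- and 1.102 in Irf4+/- cells (adjusted p = 0.0767 and 0.0752, with the block 0.0125 and 0.0131). Cx3cr1, the fractalkine receptor, had 18 h differences of -4.23 ± 0.81 in Irf4-/- and -6.09 ± 0.81 in Irf4+/- cells (adjusted p = 0.00758 and 4.31e-04), whereas Ace passed in no IL-4 contrast. Their summed linear level, in units of the array's 75th percentile, was 33.2 to 40.9 in mock, 20.8 to 23.4 at 4 h and 11.9 to 22.1 at 18 h in Irf4-/- cells, against 30.0 to 47.2, 14.9 to 26.6 and 8.19 to 22.0 in Irf4+/- cells. The genotypes overlapped in this sum in every condition, as did 4 h and 18 h within each. Of the classical monocyte markers Ccr2 and Plac8, Ccr2 fell at 4 h in Irf4+/- cells (-1.80 ± 0.43, adjusted p = 0.0262) and stood at -1.61 ± 0.43 in Irf4-/- cells (adjusted p = 0.0502, with the block 2.64e-05). At 18 h Ccr2 stood at -1.06 in Irf4-/- and -1.22 in Irf4+/- cells (limma adjusted p = 0.272 and 0.168, with the block 6.48e-04 and 1.92e-04). Plac8 stood at -0.32 and -0.17 at 4 h (adjusted p = 0.866 and 0.995). At 18 h Plac8 fell in Irf4+/- cells (-2.13 ± 0.47, adjusted p = 0.0169) and stood at -1.44 ± 0.47 in Irf4-/- cells (adjusted p = 0.139, with the block 0.0550). The summed level of Ccr2 and Plac8 in Irf4-/- cells was 12.0 to 19.8 in mock, 5.34 to 9.38 at 4 h and 5.50 to 8.86 at 18 h. In Irf4+/- cells it was 15.5 to 29.0, 5.46 to 10.0 and 5.52 to 13.0. Within each genotype the IL-4 samples did not overlap with mock. The part of either marker list in the Cd300e result was not tested.

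**Figure D1:**
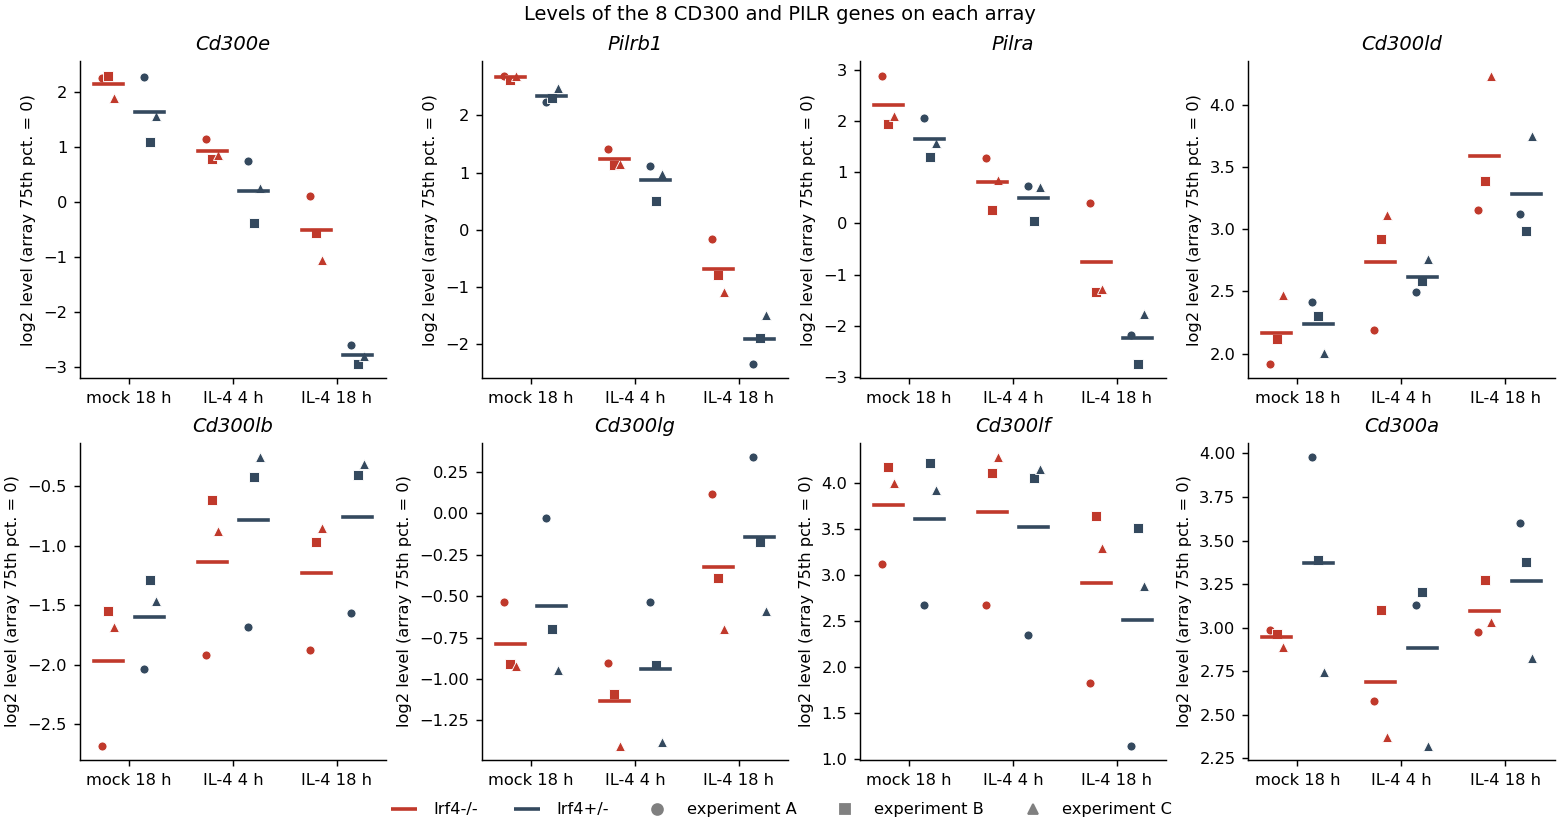
Level of each of the 8 receptor genes (log2 processed signal minus the array's 75th percentile) in mock, IL-4 4 h and IL-4 18 h cells; points are samples, shapes are experiments A, B and C, and lines are group means of 3, with Irf4-/- left of Irf4+/- and a different vertical range in each panel. Cd300e, Pilrb1 and Pilra lie lower at each IL-4 time and higher in Irf4-/- than in Irf4+/- cells at 18 h, while Cd300ld lies higher at 18 h than in mock.

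Pilrb1, the activating DAP12-coupled partner of the PILR pair, had the same order of levels. Its level in Irf4-/- cells was 2.69, 2.63 and 2.70 in mock, 1.41, 1.13 and 1.16 after 4 h, and -0.15, -0.80 and -1.09 after 18 h. That in Irf4+/- cells was 2.24, 2.31 and 2.48 in mock, 1.12, 0.51 and 0.98 after 4 h, and -2.35, -1.89 and -1.49 after 18 h. No condition overlapped another within a genotype. The 18 h difference from mock was -3.35 ± 0.25 in Irf4-/- cells (10.2-fold) and -4.25 ± 0.25 in Irf4+/- cells (19.1-fold), and the 4 h differences were -1.44 ± 0.25 and -1.47 ± 0.25. Over all processing alternatives the 18 h differences ranged from -3.62 to -3.10 and from -4.46 to -3.39.

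The genotype difference of Pilrb1 was uneven across experiments. At 18 h it was 1.23 ± 0.25 (2.34-fold higher in Irf4-/- cells), made up of 2.20 in experiment A, 1.09 in B and 0.40 in C, and the groups did not overlap. It was 0.33 ± 0.25 in mock and 0.36 ± 0.25 at 4 h, also without overlap, but the mock value was -0.017 with slide as a random block. With normexp background correction the 18 h value was 0.47. The largest of these differences, in experiment A, is the one in which genotype and scan day cannot be told apart.

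Pilra, the inhibitory ITIM-bearing partner of Pilrb1, fell at 18 h in both genotypes. Its level in Irf4-/- cells was 2.89, 1.95 and 2.10 in mock, 1.28, 0.27 and 0.84 after 4 h, and 0.39, -1.34 and -1.29 after 18 h. In Irf4+/- cells it was 2.06, 1.29 and 1.58 in mock, 0.73, 0.05 and 0.70 after 4 h, and -2.18, -2.75 and -1.77 after 18 h. The mock and 18 h groups did not overlap in either genotype. The 18 h difference was -3.06 ± 0.45 in Irf4-/- cells (8.33-fold, limma adjusted p = 8.91e-04) and -3.87 ± 0.45 in Irf4+/- cells (14.6-fold, adjusted p = 1.34e-04), lower in 3 of 3 experiments in each. Fitted on the Irf4-/- mock and 18 h arrays alone, the Irf4-/- fall had an adjusted p of 0.0544.

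Pilra also fell between 4 h and 18 h in Irf4+/- cells, with a difference of -2.72 ± 0.45 (adjusted p = 0.00718). That call was lost with normexp (-1.56, adjusted p = 0.342), with the mean of both probes (-1.88, adjusted p = 0.0697) and with only the arrays of the contrast (adjusted p = 0.0918). In Irf4-/- cells the same step was -1.55 ± 0.45, with an adjusted p of 0.194 without and 0.00471 with the experiment as a block. At 4 h the difference from mock was -1.51 ± 0.45 in Irf4-/- cells (adjusted p = 0.0850, with the block 0.00198) and -1.15 ± 0.45 in Irf4+/- cells (adjusted p = 0.220, with the block 0.0103).

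At 18 h Pilra stood 1.48 ± 0.45 higher in Irf4-/- than in Irf4+/- cells, with differences of 2.56, 1.40 and 0.48 in experiments A, B and C and no overlap. This did not pass the test without the block (adjusted p = 1.00) and passed it with the block (adjusted p = 0.0399). It was 0.92 without the Irf4-/- sample of experiment A at 18 h and 0.45 with normexp. In mock the difference was 0.67 ± 0.45 and at 4 h 0.31 ± 0.45, neither passing with or without the block. The 18 h responses of the genotypes differed by 0.81 ± 0.63 (adjusted p = 1.00), higher in 2 of 3 experiments.

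**Figure D2:**
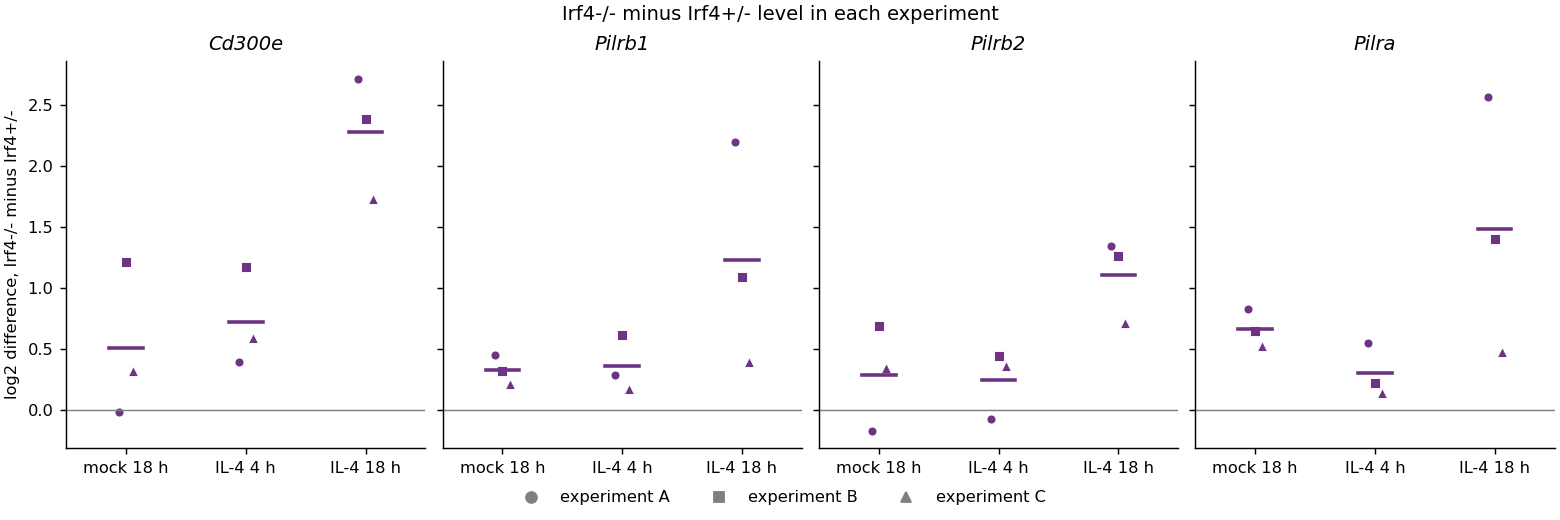
Irf4-/- minus Irf4+/- log2 difference of Cd300e, Pilrb1, Pilrb2 and Pilra in each experiment (shapes) for mock 18 h, IL-4 4 h and IL-4 18 h, with the mean as a line and 0 as the grey line. At 18 h the differences run from 2.72 for Cd300e in experiment A to 0.40 for Pilrb1 in experiment C, and for each gene experiment A is highest. Cd300e and Pilrb1 were chosen for their patterns, and the Pilrb1 probe lists a Pilrb2 transcript, so these genes are not independent of each other or of the choice.

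Pilrb2, the neighbour of Pilrb1 and no member of the set, gave the same order. The Pilrb1 probe used to choose the family lists a Pilrb2 transcript, so the p-values of Pilrb2 are not independent of that choice. Pilrb2 fell in both genotypes at both times. Its differences from mock were -0.94 ± 0.23 in Irf4-/- and -0.90 ± 0.23 in Irf4+/- cells at 4 h (adjusted p = 0.0332 and 0.0400), and -2.64 ± 0.23 and -3.46 ± 0.23 at 18 h (adjusted p = 9.49e-06 and 7.32e-07). The 4 h calls held under 11 of 19 alternatives in Irf4-/- cells and 8 of 18 in Irf4+/- cells. Binding of its probe by transcripts of Pilrb1 was not tested. At 18 h it was 1.11 ± 0.23 higher in Irf4-/- cells (adjusted p = 0.440, with the block 0.0238), with 1.35, 1.26 and 0.72 by experiment. With normexp this difference was -0.18.

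Pilra and Pilrb2 each have a second probe, and both fell at 4 h. Tested among all kept probes, of which 2.89% were called in Irf4-/- and 3.2% in Irf4+/- cells at 4 h, the second Pilra probe had 4 h differences of -2.92 ± 0.51 and -3.60 ± 0.51 (adjusted p = 0.00476 and 9.16e-04). In Irf4+/- cells at 18 h it was well above background on 1 of 3 arrays, so values that rest on this group are limited by the background. At 18 h its measured differences from mock were -3.41 ± 0.51 and -4.64 ± 0.51 (adjusted p = 0.00147 and 1.05e-04, against 2.6% and 3.01% of probes called), and the step between 4 h and 18 h was -0.49 ± 0.51 and -1.04 ± 0.51 (adjusted p = 1.00 and 0.659, against 0.378% and 0.775% of probes called). The second Pilrb2 probe changed by -3.65 ± 0.56 at 4 h in Irf4-/- cells and -4.20 ± 0.56 in Irf4+/- cells (adjusted p = 0.00202 and 6.13e-04), with -0.28 ± 0.56 and -0.33 ± 0.56 between 4 h and 18 h. Both probes of each gene were lower with IL-4 in every experiment, and the difference between probes was not tested.

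**Figure D3:**
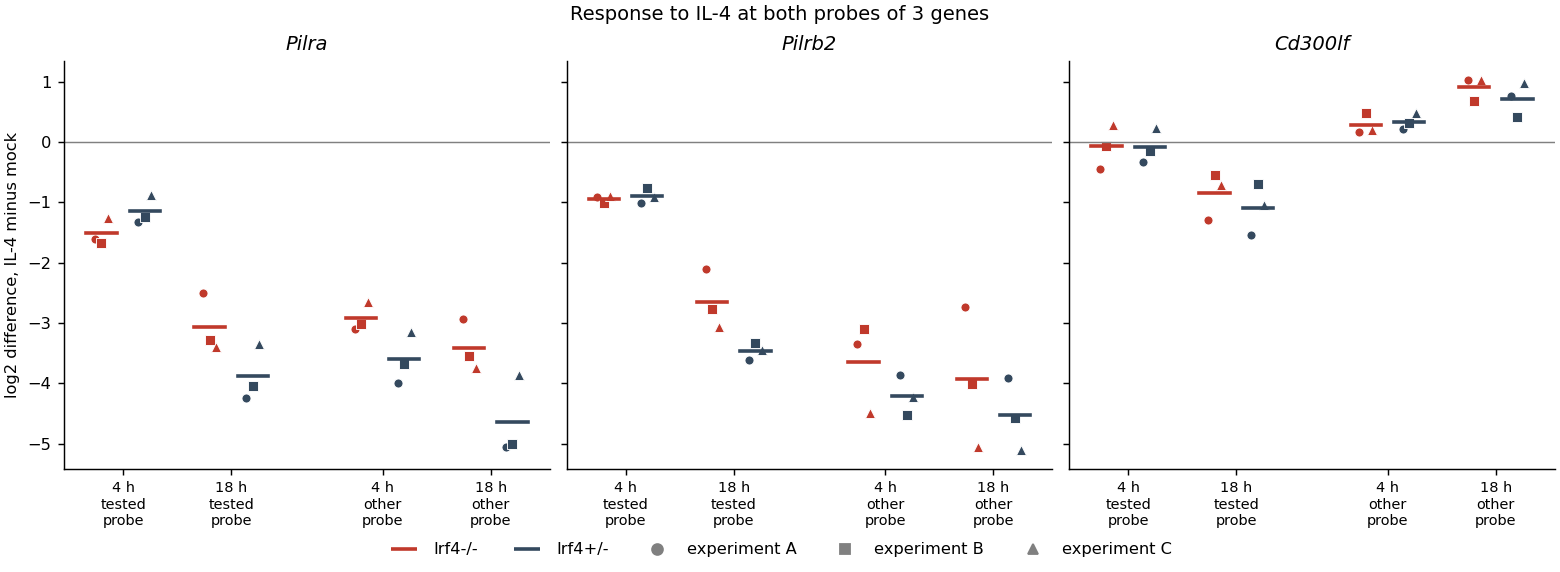
IL-4 minus mock log2 difference at both probes of Pilra, Pilrb2 and Cd300lf, at 4 h and 18 h, with Irf4-/- left of Irf4+/-, shapes for experiments and lines for means of 3. For Pilra and Pilrb2 the other probe has moved by -2.92 to -4.20 at 4 h against -0.90 to -1.51 at the tested probe, and for Cd300lf the probes lie on opposite sides of 0 at 18 h.

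Cd300ld, an activating receptor that in mice pairs with the Fc receptor γ chain (Fcer1g), moved the opposite way. Its level in Irf4-/- cells was 1.92, 2.11 and 2.48 in mock, 2.19, 2.92 and 3.11 after 4 h, and 3.15, 3.39 and 4.24 after 18 h. That in Irf4+/- cells was 2.41, 2.30 and 2.00 in mock, 2.49, 2.58 and 2.77 after 4 h, and 3.12, 2.98 and 3.75 after 18 h. Mock and 18 h samples did not overlap in either genotype. At 18 h it rose by 1.43 ± 0.30 in Irf4-/- cells (2.69-fold, adjusted p = 0.0151, higher in 3 of 3 experiments). In Irf4+/- cells the difference was 1.05 ± 0.30 (2.07-fold), with an adjusted p of 0.0781 without and 0.00781 with the block, and the responses of the genotypes differed by 0.38 ± 0.43 (adjusted p = 1.00).

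The Cd300ld call in Irf4-/- cells is narrow in the fit without the block. It held under 12 of 19 alternatives, and with the experiment as a block its adjusted p was 0.00115. Its adjusted p was 0.0514 with normexp, 0.0911 with median scaling, 0.0838 in the authors' table and 0.110 with the arrays of the contrast alone. Without 1 sample it was 0.0688 (Irf4-/- mock A), 0.0657 (Irf4-/- mock B) or 0.0881 (Irf4-/- 18 h C). The difference stayed between 1.102 and 1.65 over all alternatives. Cd300c2, its neighbour on the chromosome, had differences of 0.59 ± 0.23 in Irf4-/- and 0.35 ± 0.23 in Irf4+/- cells at 18 h (adjusted p = 0.244 and 0.729, with the block 0.0295 and 0.215).

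Cd300lb, an activating receptor that binds phosphatidylserine on dying cells, had higher values with IL-4 in every experiment without passing the test. Its level ranged from -2.68 to -1.55 in mock, -1.92 to -0.61 at 4 h and -1.88 to -0.85 at 18 h in Irf4-/- cells, against -2.04 to -1.29, -1.69 to -0.26 and -1.56 to -0.31 in Irf4+/- cells. The groups overlapped, experiment A being the lowest in all 6. The differences from mock were 0.83 ± 0.49 and 0.81 ± 0.49 at 4 h and 0.74 ± 0.49 and 0.84 ± 0.49 at 18 h in Irf4-/- and Irf4+/- cells. Their adjusted p lay between 0.525 and 0.612 without the block and between 0.00116 and 0.00319 with it.

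Cd300lf encodes an inhibitory receptor that is also known to associate with the IL-4 receptor, and its probes disagreed. At the probe used for the gene, levels in Irf4-/- cells were 3.11, 4.18 and 4.00 in mock and 1.82, 3.64 and 3.29 at 18 h, against 2.68, 4.21 and 3.93 in mock and 1.14, 3.51 and 2.88 at 18 h in Irf4+/- cells. The 18 h differences were -0.85 ± 0.70 and -1.10 ± 0.70 (adjusted p = 0.714 and 0.709, with the block 0.0114 and 0.00213). At the other probe they were 0.91 ± 0.31 and 0.71 ± 0.31 (adjusted p = 0.180 and 0.384, with the block 0.00212 and 0.00907, against 14.4% and 12.5% of probes called). Each probe moved its own way in 3 of 3 experiments of both genotypes, so no direction is given for the gene.

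Cd300a, the inhibitory receptor for phosphatidylserine and phosphatidylethanolamine, passed the test in no contrast, with or without the block. Its level stayed between 2.37 and 3.27 in Irf4-/- cells and between 2.32 and 3.98 in Irf4+/- cells, and the widest IL-4 difference was -0.49 ± 0.31 at 4 h in Irf4+/- cells (adjusted p = 0.621). Cd300lg, known as an endothelial receptor (nepmucin), lay between -1.40 and 0.12 in Irf4-/- and between -1.38 and 0.34 in Irf4+/- cells. Its differences from mock were -0.34 ± 0.31 and -0.39 ± 0.31 at 4 h (adjusted p = 0.746 and 0.748, with the block 0.0689 and 0.0425) and 0.47 ± 0.31 and 0.42 ± 0.31 at 18 h (adjusted p = 0.610 and 0.818, with the block 0.0183 and 0.0337). Between 4 h and 18 h it differed by 0.81 ± 0.31 and 0.80 ± 0.31 (adjusted p = 0.412 and 0.347, with the block 0.00183 and 0.00123). Its second probe gave 0.46 ± 0.23 and 0.32 ± 0.23 at 18 h (adjusted p = 0.491 and 0.860, with the block 0.138 and 0.364). Of 7 endothelial markers 5 were well above background on all arrays, and their summed level was 1.09 to 4.22 in mock and 0.448 to 1.66 at 18 h in Irf4-/- cells, against 1.02 to 3.35 and 0.427 to 1.47 in Irf4+/- cells. Their part in the Cd300lg values was not tested.

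Across the 6 members that could be tested, calls were few in the fit without the block. At 4 h none passed in either genotype, against 3.93% of all genes tested in Irf4-/- and 4.27% in Irf4+/- cells. An unadjusted limma p under 0.05 was held by 1 of 6 in each, against 2097 of 15413 and 2117 of 15412 genes. At 18 h Cd300ld and Pilra passed in Irf4-/- cells (2 of 6, against 3.57% of all genes) and Pilra in Irf4+/- cells (1 of 6, against 4.16%). Between 4 h and 18 h none passed in Irf4-/- cells (against 0.571% of all genes called) and Pilra passed in Irf4+/- cells (against 1.15%). For this step 3 of 6 had an unadjusted limma p under 0.05 in each genotype. Over all genes 1240 of 15413 did in Irf4-/- and 1464 of 15412 in Irf4+/- cells. The median difference of the 6 at 18 h was 0.31 in Irf4-/- and 0.16 in Irf4+/- cells, beside 0.12 and 0.03 over all genes, since members moved in both directions. With the experiment as a block 2 and 3 passed at 4 h (against 18.2% and 18.3% of all genes), 5 and 5 at 18 h (18.4% and 15.5%), and 4 and 3 between 4 h and 18 h (8.39% and 11.5%), in Irf4-/- and Irf4+/- cells in that order.

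**Figure D4:**
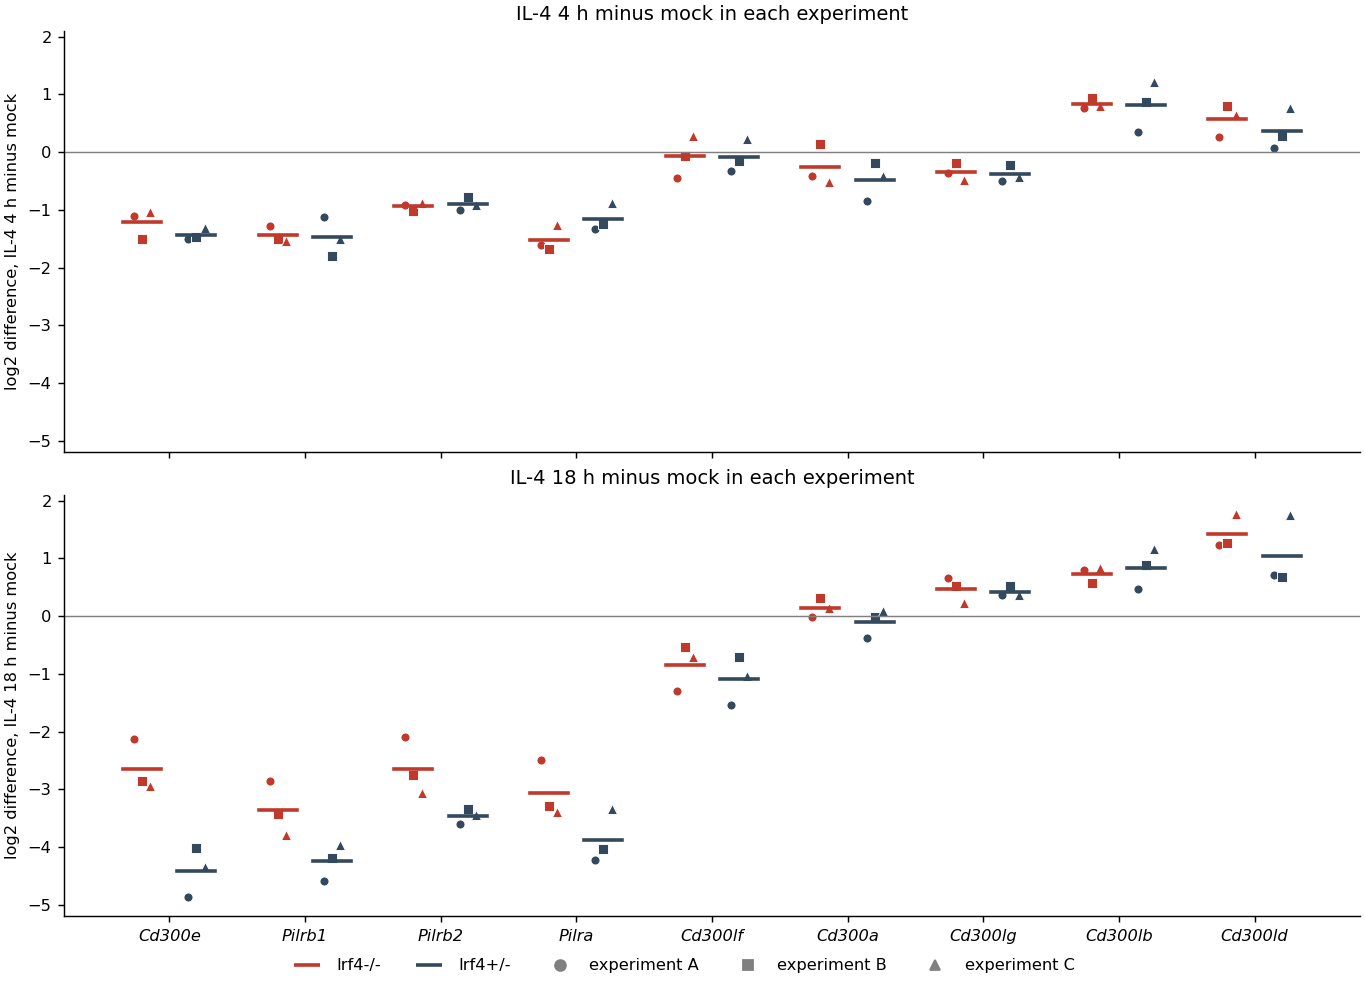
IL-4 minus mock log2 difference of the 8 receptor genes and Pilrb2 at 4 h and 18 h in each experiment (shapes), with the mean of 3 as a line, Irf4-/- left of Irf4+/-, and 0 as the grey line. Cd300e, Pilrb1, Pilrb2 and Pilra lie between -0.77 and -1.79 at 4 h and between -2.10 and -4.87 at 18 h, and the other 5 lie between -1.54 and 1.76 in both.

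Between the genotypes no tested member was called in mock (0% of all genes called), at 4 h (0%) or at 18 h (0.026%). At 18 h 1 of the 6, Pilra, had an unadjusted limma p under 0.05, as did 464 of 15412 genes. In mock and at 4 h 0 of the 6 did, against 359 and 120 of 15412 genes. With the block none passed in mock (0.0324%) or at 4 h (0.026%) and Pilra passed at 18 h (0.435%). No member's IL-4 response was called different between genotypes at 4 h (0%) or 18 h (0%), with or without the block. None had an unadjusted limma p under 0.05 for it, against 57 of 15412 genes at 4 h and 84 at 18 h. These counts leave out Cd300e and Pilrb1.

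Genes for the signalling partners of these receptors moved in both directions at 4 h of IL-4. Of 15 adaptors, kinases and phosphatases, Fyn, a SRC family kinase, rose at 4 h by 1.86 ± 0.18 in Irf4-/- and 1.94 ± 0.18 in Irf4+/- cells (adjusted p = 2.47e-05 and 1.83e-05), and Lyn and Syk, kinases that phosphorylate or bind the receptor motifs, fell in both genotypes at 4 h. Their 4 h differences were -0.99 and -0.66 in Irf4-/- cells and -1.07 and -0.88 in Irf4+/- cells. At 18 h Fyn was still higher, by 1.60 in Irf4-/- and 1.50 in Irf4+/- cells. Lyn stood at -0.77 and -0.96 at 18 h (adjusted p = 0.164 and 0.0580, with the block 0.00275 and 4.92e-04). Syk was nearer to mock at 18 h, with -0.16 and -0.21 (limma adjusted p = 0.750 and 0.772). Between 4 h and 18 h Syk rose by 0.67 in Irf4+/- cells (adjusted p = 0.0340, against 1.15% of all genes called). In Irf4-/- cells this step of Syk was 0.50 (adjusted p = 0.192, with the block 0.0184). Vav1, a guanine nucleotide exchange factor, fell in Irf4+/- cells, with -0.71 at 4 h and -0.83 at 18 h. In Irf4-/- cells its differences of -0.61 and -0.59 passed only with the block (adjusted p = 0.0510 and 0.0637 without it, 0.00229 and 0.00328 with it). Plcg2, a phospholipase, fell in Irf4+/- cells with -0.52 and -0.61. The adjusted p of Lyn at 4 h in Irf4-/- cells was 0.0497. In all, 1 rose and 2 fell at 4 h in Irf4-/- cells and 1 and 4 in Irf4+/- cells (3.93% and 4.27% of all genes were called), and 1 and 0 at 18 h in Irf4-/- cells and 1 and 2 in Irf4+/- cells (3.57% and 4.16%). With the block 1 rose in each of these contrasts, and 4, 6, 3 and 6 fell in the same order (18.2%, 18.3%, 18.4% and 15.5% of all genes). The list's median at 4 h was -0.15 in Irf4-/- and -0.19 in Irf4+/- cells, beside 0.08 and -0.02 over all genes.

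The adaptors themselves, Tyrobp, Hcst and Fcer1g, passed the test in no contrast with or without the block. Tyrobp, the adaptor that PILRβ and CD300e need, averaged 6.61, 6.46 and 6.85 in mock, 4 h and 18 h Irf4-/- cells, against 6.62, 6.57 and 6.79 in Irf4+/- cells. Of 7 tested ligands and partners (Cd99, Cd99l2, Pianp, Npdc1, Colec12, Timd4 and Il4ra), the 1 that passed without the block was Il4ra, the IL-4 receptor chain, which rose at 4 h by 1.47 in Irf4-/- and 1.35 in Irf4+/- cells and fell between 4 h and 18 h, with differences of -1.79 and -1.76. Colec12, a scavenger receptor of the collectin family, had 4 h differences of -0.68 ± 0.36 and -0.82 ± 0.36 (adjusted p = 0.464 and 0.316, with the block 0.0476 and 0.0192). Cd99, a ligand of PILR in mice, was called in no contrast.

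Other paired receptors of myeloid cells also moved in both directions. Of 27 tested at 18 h, 2 rose and 4 fell in Irf4-/- cells, and 2 rose and 7 fell in Irf4+/- cells (3.57% and 4.16% of all genes were called). With the block 2 rose and 11 fell in Irf4-/- cells and 4 rose and 12 fell in Irf4+/- cells (18.4% and 15.5% of all genes). Fcgr2b, the inhibitory Fc receptor, rose by 2.04 and 2.11 in Irf4-/- and Irf4+/- cells, and the other that rose was Clec4a3, with 1.23 and 1.09. Clec4e (Mincle), an activating lectin, fell with differences of -2.55 and -3.17, and Klra2, a Ly49 family receptor, with -3.12 and -2.98. Clec12a, an inhibitory lectin, fell with -1.28 and -1.75. The Clec12a call held under 7 of 19 alternatives in Irf4-/- cells and 16 of 18 in Irf4+/- cells, where its smallest difference was -0.08. Siglece, an inhibitory sialic acid receptor, fell in Irf4+/- cells with -2.10 and stood at -1.11 in Irf4-/- cells (adjusted p = 0.295, with the block 0.120). With normexp the differences in Irf4+/- cells were 0.23 for Klra2 and 1.66 for Siglece. Clec4d and Clec4n stood at -1.33 and -1.71 in Irf4-/- cells, passing only with the block (adjusted p = 0.0519 and 0.0740 without it, 8.89e-04 and 0.00371 with it). In Irf4+/- cells Clec4d fell with -1.64 (adjusted p = 0.0140). Clec4n stood at -1.43 there (adjusted p = 0.151, with the block 0.0104). The list's median was -0.42 in Irf4-/- and -0.58 in Irf4+/- cells, beside 0.12 and 0.03 over all genes, and none of the 27 was called between the genotypes in the fit without the block (with it, 1 was at 18 h: Clec5a, 0.97 ± 0.33, named after its value was seen, adjusted p = 0.0491, and 1.00 without).

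The genes whose levels over the 18 arrays were most like Cd300e were Pilra (Pearson r = 0.968), Ctnnal1 (0.960), Pilrb1 (0.960), Matn2 (0.958) and Pilrb2 (0.956), among 15355 genes. Those most like Pilrb1 were Pilrb2 (0.980), Pilra (0.969), Klra2 (0.965), Prss16 (0.964) and Cd300e (0.960). The arrays share cultures and conditions, so these values describe a common pattern over 6 groups. The family was chosen for the patterns of Cd300e and Pilrb1, and the Pilrb1 probe lists a Pilrb2 transcript, so the likeness among them supports nothing further. Among the other CD300 members, the correlation with Cd300e was -0.72 for Cd300ld, -0.61 for Cd300lb, -0.39 for Cd300lg, -0.15 for Cd300a and 0.34 for Cd300lf at its first probe.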

How the data were processed

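Total RNA of 18 macrophage samples was measured on 1 one-colour (Cy3) Agilent array each. The deposited files hold intensity values made by the authors with Agilent Feature Extraction 9.5.1, per the submitters' processing notes and the file headers: spot signals were background-subtracted and detrended within each array and not scaled between arrays. The flags used (control, well above background, saturated, outlier) are other values of the same software, per the file headers. The authors also deposited a table of log2 values, which matched the array files (lowest Pearson r 0.99997 over 23678 probes) as log2 signal minus the 75th percentile minus the Irf4+/- mock array of the same experiment; its scale and reference are not given in the sources used here. Its column medians ran from -0.1804 to 0.2074.

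Processed signals were scaled to the 75th percentile of each array and put on the log2 scale. Control spots and outlier flags were left out. A probe was kept if 1 or more groups had it well above background on each of their 3 arrays (27497 probes), and a gene was its kept probe with the highest mean (15413 genes). limma 3.58.1 (R 4.3.3, statmod 1.5.0) fitted 1 mean per group over all 18 arrays, and p-values were adjusted by Benjamini-Hochberg over all genes tested, with a threshold of 0.05, two-sided. Other probes were tested in a fit over all kept probes. The procedure was tested on simulated data. Tables and figures were made with Python 3.11.15. The number of arrays limits the precision.

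The letters A, B and C mark independent experiments with littermates, per the series' design text, so they pair the samples. Deviations from the group means correlated at 0.435 to 0.876 between samples of the same letter (median 0.632) and at a median of -0.419 between letters. The fit with the letter as a block stands beside the results of members, and beside named genes of other lists, where it changes the call; for the rest of a list it is given as counts. Alternatives were normexp (offset 50), median or quantile scaling, other probe filters, the mean of probes, slide, scan day or pool of cells as blocks, the arrays of a contrast alone, the authors' table, and leaving out each array.

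Members and gene lists were chosen with earlier results of these data known. Named genes are the 8 members, from each list up to 4 called genes with the largest difference per contrast (Plcg2 at 4 h, Clec4a3, Clec4d, Clec4n, Colec12 and the monocyte markers beyond that, chosen after their values were seen), and the 5 genes most like Cd300e and Pilrb1. Genes were named through RefSeq accessions and symbols. Some listed genes are not reported here.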

Additional observations from a re-analysis of the deposited data

How the results depend on the processing

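The fall of Pilra at 18 h in Irf4+/- cells passed the test under all 18 alternatives, and that in Irf4-/- cells under 18 of 19. Cd300e and Pilrb1 kept the sign of each IL-4 difference in both genotypes and of the 18 h genotype difference under each alternative. Counts of the 6 tested members rose most when experiment, slide or pool of cells entered the fit; the cause was not tested beyond the fits themselves.

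With the experiment as a replicate block, 2 members were called at 4 h in Irf4-/- cells and 3 in Irf4+/- cells (0 each without it), 5 and 5 at 18 h (2 and 1 without it), 4 and 3 between 4 h and 18 h (0 and 1 without it), and 1 between the genotypes at 18 h (0 without it). The block changed no count in the other genotype and response contrasts. Slide as a random block gave 3, 4, 5, 5, 4 and 3 members for the 4 h, 18 h and 18 h against 4 h contrasts in Irf4-/- then Irf4+/- cells, and pool of cells gave 4, 4, 5, 5, 4 and 4; of all genes, 18.9% to 32.9% were called with slide and 20.8% to 36.1% with pool in these contrasts. Scan day gave 1 and 1 at 4 h (10.8% and 11% of all genes), 2 at 18 h in Irf4+/- cells (9.21%) and 2 between 4 h and 18 h in Irf4-/- cells (3.67%). For the settings that follow, the share of all genes is not given. Their counts therefore show only where the number of members called changed. Normexp gave 1 at 18 h in Irf4-/- cells and 0 between 4 h and 18 h in Irf4+/- cells, and without far-dim spots 1 at 4 h in Irf4-/- cells. Median scaling gave 1 at 18 h in Irf4-/- cells. The mean of probes gave 1 and 1 at 4 h and 0 between 4 h and 18 h in Irf4+/- cells. The arrays of the contrast alone, with fewer samples, gave 0 at 18 h in Irf4-/- cells and 0 between 4 h and 18 h in Irf4+/- cells. The authors' table gave 1 at 4 h and 2 between 4 h and 18 h in Irf4-/- cells and 3 between 4 h and 18 h in Irf4+/- cells. Leaving out 1 array gave 1 to 2 at 18 h and 0 to 1 between 4 h and 18 h in Irf4-/- cells.

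Some differences changed sign, the cause not being tested. The Cd300lf difference at 18 h in Irf4-/- cells was 0.032 with the mean of its probes. The mock genotype difference of Pilrb1 was -0.017 with slide as a random block. The 4 h response difference between genotypes ranged from -0.10 to 0.49 for Cd300e (-0.10 without Irf4+/- mock A, -0.09 without Irf4+/- 4 h B) and from -0.15 to 0.15 for Pilrb1 when 1 array was left out (-0.06 without Irf4-/- 4 h A, -0.15 without Irf4+/- 4 h B, -0.04 without Irf4+/- mock C); for Pilrb1 it was -0.00254 with normexp without far-dim spots and -0.081 with median scaling. With normexp, Klra2 in Irf4+/- cells stood at 0.28 for 18 h against 4 h and 0.23 for 18 h against mock, Siglece in Irf4+/- cells at 1.66 for 18 h against mock (in Irf4-/- cells 0.12 without far-dim spots), and the 18 h genotype difference of Pilrb2 at -0.18.

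The authors' table is relative to Irf4+/- mock, so contrasts with that group and levels were not run on it. Of the values of named genes outside the family under alternatives, 217 were no longer called and 75 became called. Signal over background limits the second Pilra probe, well above background on 1 of 3 Irf4+/- arrays at 18 h, whereas the probes used for Cd300e, Pilrb1, Pilra and Pilrb2 were on 3 of 3 in both genotypes. Experiments number 3 per group, genotype and slide are not separable within a condition, and samples are pools of animals.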
